A study of Arabidopsis thaliana with 6 samples.

Results

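The genes described here are 10 beta-galactosidase (BGAL) genes of Arabidopsis thaliana: BGAL1, BGAL2, BGAL3, BGAL4, BGAL5, BGAL6, BGAL8, BGAL9, BGAL10 and BGAL12. They are 10 of the 17 BGAL loci considered, and 10 of the 26185 loci to which any library gave a read. The members were taken by locus, and they were chosen by their CPM across the 3 groups, which were known. Differences of the members between groups are therefore given as descriptions, with no p-value of their own. The choice names no threshold of expression. In Col_MS the lowest member, BGAL12, averaged 28.5 counts per 1000000 reads (CPM), and the highest BGAL locus outside the 10, BGAL7, averaged 20.5 CPM. In the other groups they were closer. BGAL12 averaged 30.2 CPM in wei8tar2_MS and 29.4 CPM in Col_Kyn, beside 28.0 and 24.8 CPM for BGAL7. All 10 members passed the filter on low counts, so none is missing from the values below.

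Messenger RNA was sequenced from whole 3-day-old etiolated seedlings in 3 groups of 2 biological repeats each, all in the ecotype Col-0. The wei8tar2_MS seedlings came from a line that is wei8-/- tar2+/- and grew on MS medium, and the labels do not say which of its progeny were pooled. The Col_Kyn seedlings were Col-0 on MS medium with kynurenine, an inhibitor of the TAA1 and TAR aminotransferases, for which the label gives 25 mM. Nothing else in the sources used here states that dose, and its unit stays unchecked. The treatment protocol names samples by codes that match no sample title, so groups were taken from titles and growth medium. The Col_MS seedlings were Col-0 on MS medium alone. Seeds of all groups were imbibed for 3 days at 4 °C and grown for 3 days in darkness at 22 °C. WEI8 is TAA1, an aminotransferase of auxin biosynthesis, and TAR2 is its relative, so both the mutant line and the inhibitor act on the same enzymatic step. In whole seedlings, fewer cells of a type and less RNA per cell cannot be told apart.

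The libraries held 18.1 M to 31.8 M uniquely mapped reads (M, 1000000), and 3 reads, the limit that a count of 0 allows, correspond to 0.0943 to 0.165 CPM. TAA1 stood at 7.89 and 8.36 CPM in wei8tar2_MS, at 38.4 and 41.5 CPM in Col_Kyn and at 37.8 and 38.7 CPM in Col_MS. TAR2 stood at 2.9 and 2.01 CPM in wei8tar2_MS, at 7.08 and 6.29 CPM in Col_Kyn and at 10.1 and 8.11 CPM in Col_MS. The Col_MS libraries stood apart from the rest along the leading principal component (46.8% of the variance), with scores of -62.8 for replicate 1 and -19.5 for replicate 2 beside 3.29 to 30.8 for the wei8tar2_MS and Col_Kyn libraries. In TMM-scaled CPM all 10 members were lower in Col_MS replicate 1 than in Col_MS replicate 2. The log2 differences ran from 0.01 for BGAL10 to 0.63 for BGAL4. In the deposited RPKM (reads per kilobase and per 1000000 reads) BGAL9, at 9.55 against 9.48, and BGAL10, at 52.7 against 52.0, were higher in replicate 1. How many of all genes were lower in replicate 1 was not counted. Results are also given without Col_MS replicate 1 where that moves them.

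Beta-galactosidases of this family remove galactose from the ends of sugar chains. In plant cell walls such galactose caps the side chains of xyloglucan and builds the galactan branches of pectin and the arabinogalactan chains of secreted glycoproteins. Most of the enzymes are secreted into the wall, where they trim these polymers as cells grow, store or mobilise sugar. The family belongs to glycoside hydrolase family 35, whose catalytic proton donor is a glutamate within a conserved signature.

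That signature is shown first because the members share it in sequence, as most of the other BGAL loci also do. It was read from the coding sequence of the RefSeq TAIR10.1 genome and is given as the spliced coding strand, 39 bases long, joined across an intron in every member. Capitals mark the codons for glutamate, asparagine and glutamate, of which the last encodes the proton donor. The coordinates span both exon pieces and the intron between them. The following are shown because BGAL2 and BGAL9 are the members called below, BGAL4 and BGAL12 are the closest relatives of BGAL2, and BGAL10 is the best-studied xyloglucan galactosidase.
BGAL2 (chr3:19582262-19582375, plus strand): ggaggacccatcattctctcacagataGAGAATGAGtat
BGAL12 (chr4:13246615-13246767, minus strand): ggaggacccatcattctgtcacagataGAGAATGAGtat
BGAL4 (chr5:23005390-23005546, plus strand): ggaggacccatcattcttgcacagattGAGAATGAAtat
BGAL9 (chr2:13924122-13924394, minus strand): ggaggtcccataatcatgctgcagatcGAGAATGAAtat
BGAL10 (chr5:25538371-25538497, plus strand): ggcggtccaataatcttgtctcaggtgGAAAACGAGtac

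All 10 members held 1 match to the signature. So did BGAL7, BGAL11, BGAL13, BGAL14, BGAL15 and BGAL17 outside the set, while BGAL16 held 0, so the signature does not mark the members. BGAL2 and BGAL12 differed at 1 of the 39 bases, BGAL2 and BGAL4 at 4, and BGAL2 and BGAL9 at 10. Over the aligned bases of the whole coding sequence, BGAL2 was 83.2% identical to BGAL12, 79.4% to BGAL4 and 60.9% to BGAL9, the same order. Other pairs did not keep to it: BGAL4 and BGAL12 were 80.8% identical and differed at 4 bases of the signature, BGAL3 and BGAL6 were 59.9% identical and differed at 5, and BGAL1 and BGAL12 were 69.8% identical and differed at 9. The next closest pair of members, BGAL3 and BGAL5, was 69.9% identical. The longest identical stretch between BGAL2 and BGAL12 was 34 bases and that between BGAL4 and BGAL12 was 35 bases. No member had the same counts as another gene in all 6 libraries, and how the counting treated reads that match more than 1 gene is known only as far as the deposited counts are of uniquely mapped reads.

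Between wei8tar2_MS and Col_MS, 2 of the 10 members were called at an adjusted p under 0.05 by edgeR's quasi-likelihood test, against 1.08% of the 21326 genes tested. BGAL2 was the member called higher, a direction taken by 0.563% of genes, and BGAL9 the one called lower, against 0.516% of genes. Between Col_Kyn and Col_MS, 1 of the 10 was called, BGAL2, which was higher, against 0.366% of genes called in all and 0.145% called higher. Between wei8tar2_MS and Col_Kyn, 1 of the 10 was called, BGAL9, which was lower, against 0.0281% of genes called in all and 0.0188% called lower. Because the levels in these groups served to choose the members, the shares stand beside the counts and nothing is read from them. The median log2 fold change of the 10 was 0.14 in wei8tar2_MS against Col_MS and 0.09 in Col_Kyn against Col_MS, beside -0.02 over all genes in both comparisons. Both comparisons use the same Col_MS libraries.

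**Figure D1:**
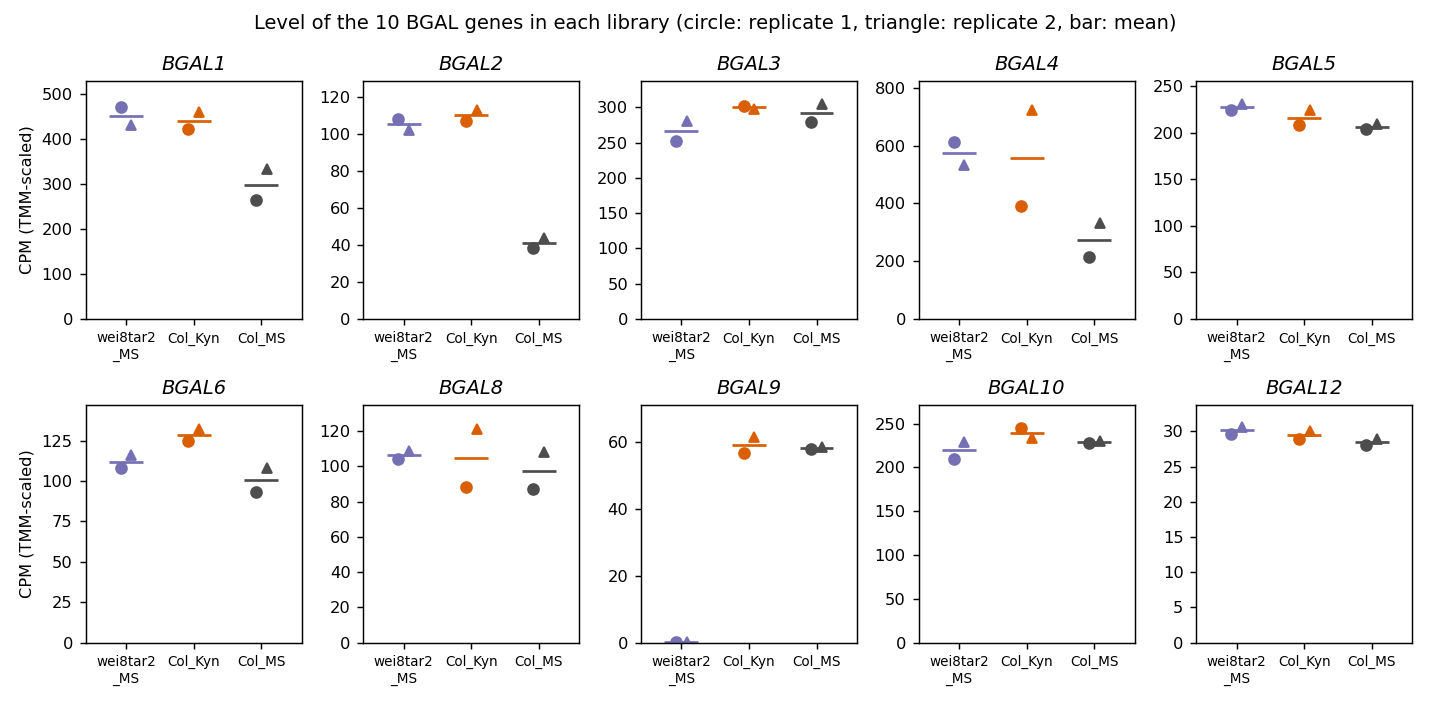
TMM-scaled CPM of each BGAL gene (vertical axes, each starting at 0) in the libraries of wei8tar2_MS, Col_Kyn and Col_MS, with replicate 1 as a circle, replicate 2 as a triangle and the mean as a bar. BGAL2 is at 102 to 113 CPM in wei8tar2_MS and Col_Kyn and at 38.5 and 43.6 CPM in Col_MS, and BGAL9 is at 0.11 and 0.197 CPM in wei8tar2_MS and at 56.7 to 61.6 CPM elsewhere.

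BGAL2 (AT3G52840, TAIR10.1 chromosome 3, 19581049 to 19586354, plus strand, 18 exons) encodes an enzyme shown to release galactose from wall polysaccharides. It had 108 and 102 CPM in wei8tar2_MS, 107 and 113 CPM in Col_Kyn, and 38.5 and 43.6 CPM in Col_MS. The 4 libraries of the mutant line and the inhibitor lay within 102 to 113 CPM and all stood above both Col_MS libraries. BGAL2 averaged 105 ± 3.87 CPM in wei8tar2_MS and 41.1 ± 3.62 CPM in Col_MS (SD, n = 2 each), a log2 fold change of 1.36 ± 0.11 (SE). In Col_Kyn it averaged 110 ± 4.25 CPM (SD, n = 2), a log2 fold change of 1.43 ± 0.11 against Col_MS. Between wei8tar2_MS and Col_Kyn the log2 fold change was -0.07 ± 0.11, within its standard error. Among 21326 genes ordered by fold change from the highest, BGAL2 ranked 260 in wei8tar2_MS against Col_MS and 165 in Col_Kyn against Col_MS. Without Col_MS replicate 1 the log2 fold change was 1.27 in wei8tar2_MS and 1.34 in Col_Kyn, and both calls held. The call in Col_Kyn was lost when only the 2 groups compared were fitted, and also without Col_Kyn replicate 2, without wei8tar2_MS replicate 1 or without wei8tar2_MS replicate 2, with log2 fold changes of 1.38 to 1.43, and the call in wei8tar2_MS was lost without either wei8tar2_MS replicate, at 1.32 and 1.39.

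BGAL4 (AT5G56870, chromosome 5, 23003909 to 23009672, plus strand) is a close relative of BGAL2 that is known to be induced when sugar runs short. It had 612 and 534 CPM in wei8tar2_MS, 391 and 723 CPM in Col_Kyn, and 214 and 332 CPM in Col_MS. All 4 libraries of the mutant line and the inhibitor exceeded both Col_MS libraries, but the Col_Kyn libraries were 1.85-fold apart and the Col_MS libraries 1.55-fold apart. The log2 fold change was 1.07 ± 0.31 in wei8tar2_MS and 1.03 ± 0.31 in Col_Kyn, and neither passed the adjusted threshold. Without Col_MS replicate 1 these values were 0.79 and 0.75. Without Col_Kyn replicate 2 the value in Col_Kyn was 0.51. In the RefSeq annotation BGAL4 overlaps AT5G56880 on the opposite strand over 909 bases, 15.8% of its span, and that neighbour stood at no more than 1.49 CPM in any library. No step that marks strand is described for these libraries, so reads in such an overlap cannot be assigned to a strand.

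BGAL12 (AT4G26140, chromosome 4, 13242968 to 13248213, minus strand) is the gene closest to BGAL2 in coding sequence, and its level was much the same in all libraries. It had 29.7 and 30.6 CPM in wei8tar2_MS, 28.9 and 30.0 CPM in Col_Kyn, and 28.1 and 28.9 CPM in Col_MS. The 6 values thus lay within 28.1 to 30.6 CPM. The log2 fold change was 0.08 ± 0.10 in wei8tar2_MS and 0.05 ± 0.10 in Col_Kyn against Col_MS, neither beyond its standard error. Beside BGAL2 at 1.36 and 1.43, the most similar pair in the set therefore had unlike values in both comparisons, though the difference between the genes was not tested.

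BGAL1 (AT3G13750, chromosome 3, 4510965 to 4516478, plus strand) belongs to the same branch of the family. It had 471 and 432 CPM in wei8tar2_MS, 422 and 460 CPM in Col_Kyn, and 264 and 333 CPM in Col_MS. Each library of the mutant line and the inhibitor was above each Col_MS library. The log2 fold change was 0.60 ± 0.14 in wei8tar2_MS and 0.56 ± 0.14 in Col_Kyn, and neither passed the adjusted threshold. BGAL1 was called in both comparisons by DESeq2, which called 6.25% of all genes in wei8tar2_MS against Col_MS and 3.52% in Col_Kyn against Col_MS, and also without Col_MS replicate 2, at 0.80 and 0.75. Without Col_MS replicate 1 the log2 fold changes were 0.44 and 0.40, so the size of the difference depended on which Col_MS library was kept.

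**Figure D2:**
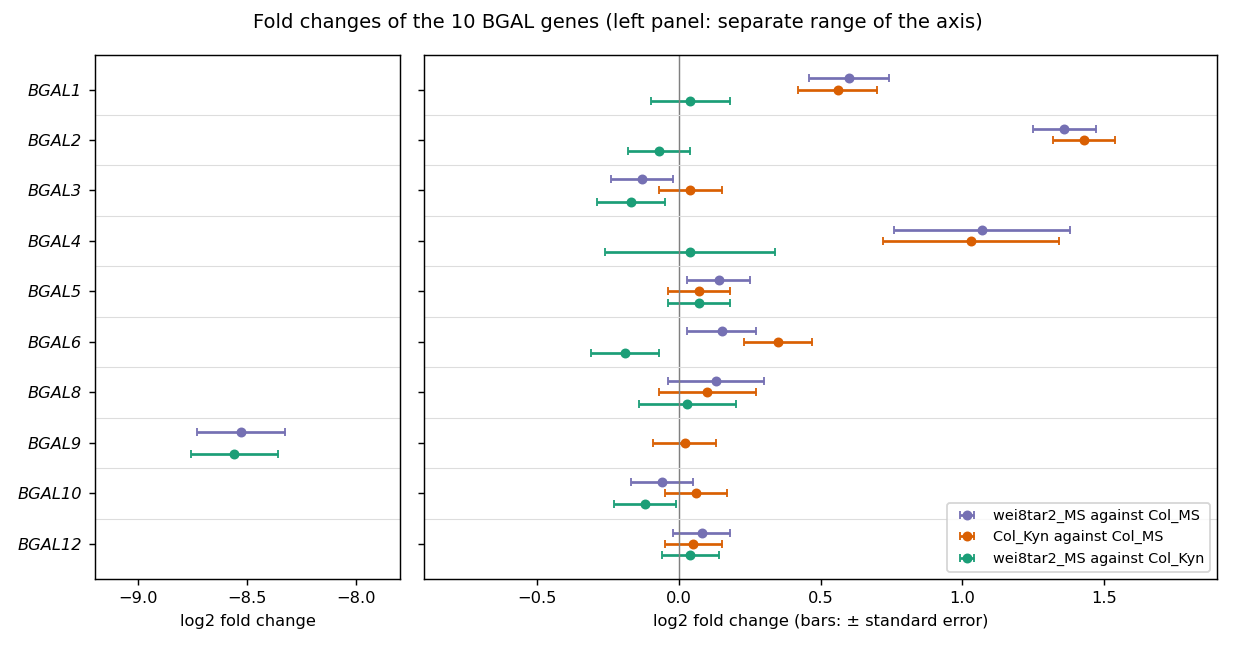
Log2 fold change (horizontal axis, points, with bars of ± 1 standard error) of each BGAL gene in wei8tar2_MS against Col_MS, Col_Kyn against Col_MS and wei8tar2_MS against Col_Kyn. The left panel has its own range of the axis and holds BGAL9 at -8.53 and -8.56, while BGAL2, BGAL4 and BGAL1 lie to the right in both comparisons with Col_MS and near 0 in the direct one. The bars of BGAL9 in the left panel understate the error, which is wider by counting alone.

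BGAL9 (AT2G32810, chromosome 2, 13919127 to 13925421, minus strand, 19 exons) has the longest coding sequence of the 10, at 887 codons. It had 3 and 5 reads in wei8tar2_MS, 1768 and 1077 reads in Col_Kyn, and 1591 and 1666 reads in Col_MS. In CPM these are 0.11 and 0.197 in wei8tar2_MS, 56.7 and 61.6 in Col_Kyn, and 57.9 and 58.5 in Col_MS. The Col_Kyn and Col_MS libraries overlapped, and both wei8tar2_MS libraries fell close to the limit that a count of 0 allows. With exact Poisson intervals at 95%, the 3 reads stand for 0.0227 to 0.322 CPM and the 5 reads for 0.064 to 0.46 CPM. Such intervals cover counting error only, since PCR copies are not separate molecules. Over both libraries, the level in wei8tar2_MS was 0.261% of that in Col_MS (95% interval 0.113% to 0.516%, counting error only), or 383-fold lower (194-fold to 887-fold). Against Col_Kyn it was 0.26% (0.112% to 0.514%), or 384-fold lower. The fitted log2 fold change was -8.53 ± 0.20 in wei8tar2_MS against Col_MS and -8.56 ± 0.20 in wei8tar2_MS against Col_Kyn. These SE come from the F statistic and understate the error at 3 and 5 reads. The counting interval of 194-fold to 887-fold is wider than they imply. In both comparisons BGAL9 had the lowest fold change of the 21326 genes tested. In Col_Kyn against Col_MS the log2 fold change was 0.02 ± 0.11.

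The neighbours of BGAL9 on chromosome 2 had reads in all groups. Of the 3 tested genes on each side 0 were called by edgeR, and their log2 fold changes ran from -0.61 to 0.77 in wei8tar2_MS against Col_MS and from -0.73 to 0.82 in Col_Kyn against Col_MS. The ends of the range in wei8tar2_MS were PAP13 at -0.61 ± 0.59 and BGLU33 at 0.77 ± 0.77. These genes had few reads, at no more than 0.546 and 0.477 CPM in any library. In each comparison 1 of the 6 had an unadjusted p under 0.05, beside 20.6% of all genes in wei8tar2_MS and 17.0% in Col_Kyn. DESeq2 called 0 of the 6 in wei8tar2_MS and 1 in Col_Kyn, beside 6.25% and 3.52% of all genes. The nearest of them, AP4.3A (AT2G32800), lies on the opposite strand and overlaps BGAL9 by 53 bases, 0.842% of its span. AP4.3A had 45.1 and 43.0 CPM in wei8tar2_MS, 46.3 and 64.8 CPM in Col_Kyn, and 31.1 and 31.6 CPM in Col_MS. Its log2 fold change was 0.49 ± 0.16 in wei8tar2_MS and 0.82 ± 0.16 in Col_Kyn, the upper end of the range there. By edgeR's quasi-likelihood test its adjusted p was 0.144 and 0.0927, the lowest of the 6 in each comparison. Its reads were thus present in every library, also in those in which BGAL9 had 3 and 5 reads. The deposited counts give 1 value per gene, so which part of BGAL9 the remaining reads came from, and whether the line carries a change at this locus, was not tested. Of the 6 tested genes that flank BGAL2, 0 were called by edgeR or DESeq2 and 1 and 2 had an unadjusted p under 0.05, with log2 fold changes of 0.02 to 0.73 in wei8tar2_MS and 0.13 to 0.67 in Col_Kyn.

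**Figure D3:**
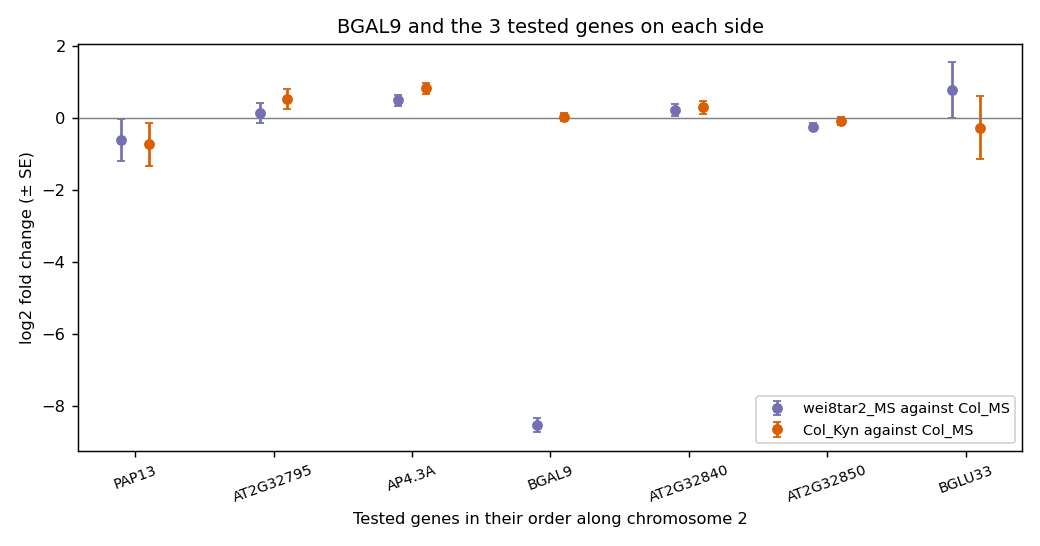
Log2 fold change (vertical axis, ± 1 standard error) of BGAL9 and of the 3 tested genes on each side, in their order along chromosome 2, in wei8tar2_MS against Col_MS and Col_Kyn against Col_MS. BGAL9 stands at -8.53 in wei8tar2_MS, while the 6 neighbours lie between -0.61 and 0.77 in that comparison. The bar of BGAL9 in wei8tar2_MS understates the error, which is wider by counting alone.

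BGAL10 (AT5G63810, chromosome 5, 25537074 to 25541529, plus strand) encodes the main enzyme that removes galactose from xyloglucan side chains in growing tissue. It had 210 and 229 CPM in wei8tar2_MS, 245 and 233 CPM in Col_Kyn, and 228 and 230 CPM in Col_MS. No difference beyond the standard error was seen, with log2 fold changes of -0.06 ± 0.11 in wei8tar2_MS and 0.06 ± 0.11 in Col_Kyn. BGAL6 (AT5G63800, chromosome 5, 25530055 to 25535889, plus strand), also called MUM2, modifies the pectin of seed coat mucilage. It lies 1184 bases before BGAL10 on the same strand, with 1 annotated non-coding RNA gene between them. BGAL6 had 108 and 116 CPM in wei8tar2_MS, 125 and 132 CPM in Col_Kyn, and 93.5 and 108 CPM in Col_MS. The Col_Kyn libraries stood above the Col_MS libraries and the wei8tar2_MS libraries did not clear them. The log2 fold change of BGAL6 was 0.15 ± 0.12 in wei8tar2_MS and 0.35 ± 0.12 in Col_Kyn, and neither was called.

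BGAL3 (AT4G36360, chromosome 4, 17176342 to 17181466, minus strand) had 252 and 280 CPM in wei8tar2_MS, 302 and 298 CPM in Col_Kyn, and 279 and 304 CPM in Col_MS. Its log2 fold change was -0.13 ± 0.11 in wei8tar2_MS and 0.04 ± 0.11 in Col_Kyn, and the libraries overlapped with Col_MS in both. BGAL5 (AT1G45130, chromosome 1, 17065111 to 17069269, plus strand) encodes an enzyme shown, like that of BGAL2, to act on wall polysaccharides. BGAL5 had 224 and 231 CPM in wei8tar2_MS, 208 and 224 CPM in Col_Kyn, and 204 and 209 CPM in Col_MS. Its log2 fold change was 0.14 ± 0.11 in wei8tar2_MS and 0.07 ± 0.11 in Col_Kyn. BGAL8 (AT2G28470, chromosome 2, 12168840 to 12173991, minus strand) varied more between the replicates of Col_Kyn and of Col_MS than between group means. It had 104 and 109 CPM in wei8tar2_MS, 88.3 and 121 CPM in Col_Kyn, and 86.9 and 108 CPM in Col_MS, with log2 fold changes of 0.13 ± 0.17 and 0.10 ± 0.17 against Col_MS.

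Counted by whether the 2 libraries of a group lay outside those of the other, 5 members were higher and 1 was lower in wei8tar2_MS than in Col_MS, where 26.6% of all tested genes were higher and 29.0% lower in this sense. In Col_Kyn against Col_MS 6 members were higher and 0 lower, where 20.2% of all tested genes were higher and 23.4% lower. By edgeR's unadjusted p under 0.05, 4 of the 10 passed in each of these comparisons, beside 20.6% of all genes in wei8tar2_MS and 17.0% in Col_Kyn. In wei8tar2_MS against Col_Kyn 0 members were higher and 4 lower by library, beside 16.8% and 18.8% of all genes, and 1 passed the unadjusted threshold, beside 4.32% of genes. The members chosen for their levels in these groups cannot be set against these shares as evidence.

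The order of the levels between genes was read per length, as CPM per kilobase of the longest annotated transcript. These transcripts are those of RefSeq, while the annotation used for counting is not given. For BGAL4 the listed gene length was 4453 bases and the RefSeq gene spans 5764 bases. Whether such a mismatch lowered the level of BGAL4 per kilobase was not tested. In Col_MS BGAL10 at 87.9 ± 0.383, BGAL3 at 86.0 ± 5.21, BGAL1 at 85.5 ± 13.9, BGAL5 at 76.5 ± 1.20 and BGAL4 at 71.6 ± 21.8 (SD, n = 2 each) led, and each overlapped the next in its libraries. BGAL6 at 38.3, BGAL8 at 27.9, BGAL9 at 18.1, BGAL2 at 15.6 and BGAL12 at 9.97 followed, and these 5 did not overlap with their neighbours in the order. BGAL2 was thus the ninth of the 10 in untreated Col-0. In wei8tar2_MS the leading members were BGAL4 at 150 ± 14.5 and BGAL1 at 129 ± 7.94, whose libraries did not overlap, BGAL2 was the seventh at 39.9 ± 1.47, and BGAL9 was the last at 0.0478 ± 0.0191. In Col_Kyn the leading members were BGAL4 at 146 ± 61.6 and BGAL1 at 126 ± 7.82, whose libraries overlapped, and BGAL2 was the seventh at 41.9 ± 1.61. The leading member of Col_MS depended on the length used. Per kilobase of coding sequence BGAL4 had the highest mean in all groups, at 263 ± 25.5 in wei8tar2_MS, 256 ± 108 in Col_Kyn and 126 ± 38.1 in Col_MS, where BGAL10 was the fourth at 103 ± 0.449. By the authors' RPKM, which divides by a gene length that includes introns, BGAL4 also had the highest mean in all groups, at 130 RPKM in wei8tar2_MS, 121 RPKM in Col_Kyn and 62.3 RPKM in Col_MS. In Col_MS that place rested on replicate 2, at 75.1 RPKM, since in replicate 1 BGAL4 at 49.5 RPKM was below BGAL3 at 58.3, BGAL10 at 52.7, BGAL5 at 52.2 and BGAL1 at 50.9 RPKM. BGAL2 was the ninth in Col_MS on all 3 scales.

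Summed over the 10 genes, the level per kilobase of longest transcript was 656 and 645 in wei8tar2_MS, 624 and 739 in Col_Kyn, and 480 and 554 in Col_MS. All 4 libraries of the mutant line and the inhibitor were above both Col_MS libraries. BGAL4 held 24.5% and 21.7% of this sum in wei8tar2_MS, 16.4% and 25.7% in Col_Kyn, and 11.7% and 15.7% in Col_MS. BGAL2 held 6.24% and 6.02% in wei8tar2_MS, 6.52% and 5.82% in Col_Kyn, and 3.04% and 2.99% in Col_MS. BGAL9 held 0.00522% and 0.00951% in wei8tar2_MS, 2.82% and 2.59% in Col_Kyn, and 3.75% and 3.28% in Col_MS. BGAL4 stood at 161 and 140 per kilobase in wei8tar2_MS and at 56.3 and 87.0 in Col_MS. BGAL1 stood at 135 and 124 in wei8tar2_MS and at 75.7 and 95.3 in Col_MS. Much of the higher sum in wei8tar2_MS thus lay in BGAL4 and BGAL1, which edgeR did not call in the main fit. The sum was higher there although BGAL9 added almost nothing to it.

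**Figure D4:**
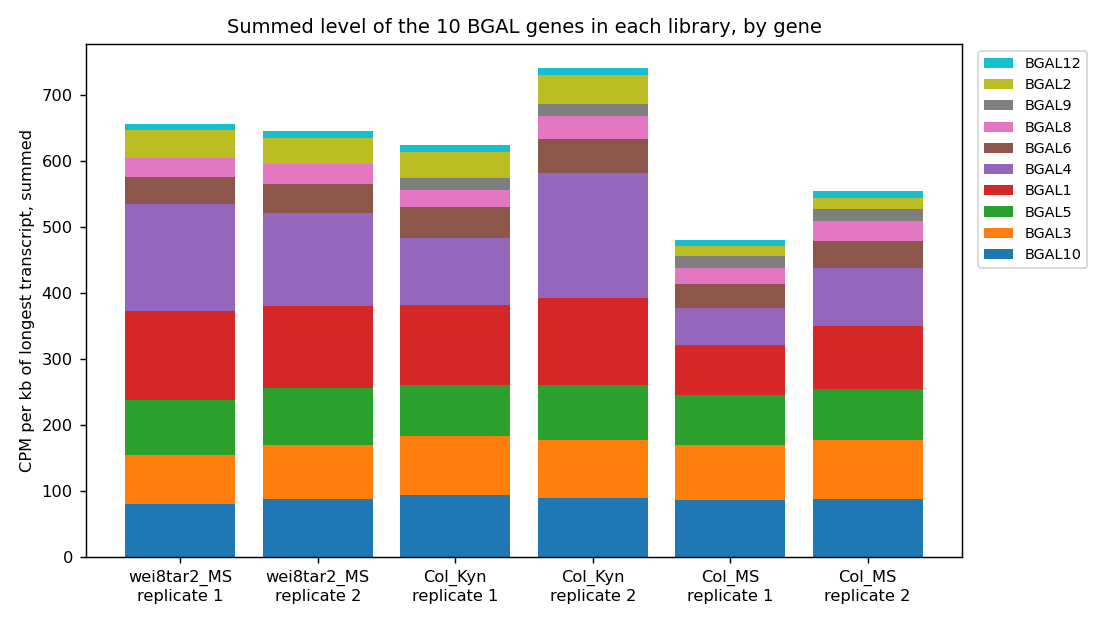
Level per kilobase of longest transcript (vertical axis, CPM per kb), stacked by gene, in each library of wei8tar2_MS, Col_Kyn and Col_MS. The sums are 624 to 739 in wei8tar2_MS and Col_Kyn and 480 and 554 in Col_MS, and the BGAL4 band is the one that varies most between libraries.

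The other 7 loci of the family ranged from almost no reads up to levels near those of the member BGAL12. BGAL7 exceeded BGAL12 in wei8tar2_MS replicate 1 (30.3 against 29.7 CPM) and in Col_Kyn replicate 2 (37.5 against 30.0 CPM). BGAL7 (AT5G20710) had 30.3 and 25.7 CPM in wei8tar2_MS, 12.1 and 37.5 CPM in Col_Kyn, and 22.9 and 18.2 CPM in Col_MS. Its Col_Kyn libraries lay on both sides of all the others, and its log2 fold changes were 0.45 ± 0.43 in wei8tar2_MS (adjusted p = 0.601 by edgeR's quasi-likelihood test) and 0.25 ± 0.44 in Col_Kyn (adjusted p = 0.813 by the same test). BGAL17 (AT1G72990) averaged 11.2 CPM in wei8tar2_MS, 11.2 CPM in Col_Kyn and 11.7 CPM in Col_MS. BGAL16 (AT1G77410) averaged 2.99 CPM in wei8tar2_MS, 2.50 CPM in Col_Kyn and 2.98 CPM in Col_MS. Of these 3 loci 0 were called by edgeR, DESeq2 or limma-voom in wei8tar2_MS or Col_Kyn against Col_MS, and 0 had an unadjusted p under 0.05. BGAL11, BGAL13, BGAL14 and BGAL15 had 0 to 5 reads in each library and were not tested; BGAL11 and BGAL13 are known for their expression in pollen.

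The upstream sequence of 4 members is shown because BGAL2 and BGAL4 had log2 fold changes of 1.03 to 1.43 against Col_MS where their relative BGAL12 had 0.05 and 0.08, and because BGAL9 is the member nearly without reads in wei8tar2_MS. Each is the 250 bases before the annotated gene start in RefSeq's TAIR10.1 genome, on the strand of the gene, and no other annotated gene reaches into any of the 4 windows. Capitals mark matches, on either strand, to the G-box CACGTG, the ACGT core that it contains, the auxin response element TGTCTC, the TATCCA element of sugar-responsive promoters in cereals and the W-box core TTGACC.
BGAL2 (chr3:19580799-19581048, plus strand): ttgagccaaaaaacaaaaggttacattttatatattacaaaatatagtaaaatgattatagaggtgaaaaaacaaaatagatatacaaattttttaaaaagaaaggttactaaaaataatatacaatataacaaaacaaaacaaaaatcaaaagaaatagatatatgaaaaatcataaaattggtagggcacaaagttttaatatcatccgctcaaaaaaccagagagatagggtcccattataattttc
BGAL4 (chr5:23003659-23003908, plus strand): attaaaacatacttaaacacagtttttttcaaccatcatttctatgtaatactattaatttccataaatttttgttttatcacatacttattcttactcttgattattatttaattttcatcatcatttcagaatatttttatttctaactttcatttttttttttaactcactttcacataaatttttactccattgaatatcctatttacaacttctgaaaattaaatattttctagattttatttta
BGAL12 (chr4:13248214-13248463, minus strand): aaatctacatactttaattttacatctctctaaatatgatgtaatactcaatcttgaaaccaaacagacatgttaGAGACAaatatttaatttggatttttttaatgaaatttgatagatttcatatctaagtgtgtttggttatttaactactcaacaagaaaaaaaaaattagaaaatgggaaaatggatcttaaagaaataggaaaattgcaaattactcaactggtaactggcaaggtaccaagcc
BGAL9 (chr2:13925422-13925671, minus strand): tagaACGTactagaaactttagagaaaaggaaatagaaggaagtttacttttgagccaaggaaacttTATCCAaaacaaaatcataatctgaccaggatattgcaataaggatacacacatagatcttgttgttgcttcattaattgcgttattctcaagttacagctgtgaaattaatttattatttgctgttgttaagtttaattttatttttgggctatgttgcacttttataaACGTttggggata

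The windows of BGAL2 and BGAL4 held none of these motifs. BGAL12 held 1 match to TGTCTC, written GAGACA on the strand shown, and BGAL9 held 2 matches to the ACGT core and 1 to TATCCA. Over all 10 members the ACGT core was found in 3 windows, TGTCTC in 2 and TATCCA in 1, while the G-box and the W-box core were found in 0. Of 27443 windows of the same length before annotated genes, 44.1% held the ACGT core, 10.9% TGTCTC, 13.6% TATCCA, 6.49% the G-box and 12.2% the W-box core. The TATA box core TATAAA, not set in capitals and also sought on either strand, was found in 6 member windows and in 47.3% of all windows. BGAL2 held 1 match, 224 bases before the gene start and written TTTATA on the strand shown. BGAL9 held 2, at 20 and 18 bases. A match far from the gene start or on the other strand need not be a TATA box. A match or its lack describes these letters in this window only.

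Other genes that act on wall sugars were taken from lists chosen with earlier results of these data known, and most of them were not called. Of 17 tested glycosidases of the wall, 2 were called higher and 0 lower in wei8tar2_MS against Col_MS by edgeR, and 7 of the 17 had an unadjusted p under 0.05. DESeq2 called 4 of them and limma-voom 3. Over all 21326 genes in wei8tar2_MS against Col_MS, edgeR called 1.08%, DESeq2 6.25% and limma-voom 216 genes. There 20.6% of all genes had an unadjusted p under 0.05. The lists were chosen with results known, so nothing is read from such shares. In that comparison 6 of the 17 had positive and 11 negative log2 fold changes. BXL1 (AT5G49360) stood at 1.78 ± 0.31 in wei8tar2_MS and 1.55 ± 0.31 in Col_Kyn, and edgeR called neither. BGLC1 (AT5G20950), also not called by edgeR, stood at -0.67 ± 0.12 and -0.65 ± 0.12. BXL4 (AT5G64570), which encodes a beta-xylosidase, had 743 and 701 CPM in wei8tar2_MS and 241 and 339 CPM in Col_MS, a log2 fold change of 1.31 ± 0.22 (adjusted p = 0.0475 by edgeR). AGAL2 (AT5G08370), an alpha-galactosidase gene whose product removes galactose in the opposite linkage, had 23.7 and 22.4 CPM in wei8tar2_MS and 11.9 and 10.4 CPM in Col_MS, a log2 fold change of 1.05 ± 0.13 (adjusted p = 0.0359 by edgeR). Without Col_MS replicate 1 or either wei8tar2_MS replicate these 2 calls were lost, as was that of BXL4 with a filter of at least 100 reads, though over all 14 alternatives the log2 fold change was no lower than 1.09 for BXL4 and 0.98 for AGAL2. In Col_Kyn against Col_MS 0 of the 17 were called by edgeR, 5 by DESeq2 and 0 by limma-voom, and 6 had an unadjusted p under 0.05. Over all genes in Col_Kyn against Col_MS, edgeR called 0.366%, DESeq2 3.52% and limma-voom 50 genes, and 17.0% had an unadjusted p under 0.05. There BXL4 and AGAL2 stood at 0.90 ± 0.22 and 0.64 ± 0.13. The median of the 17 was -0.16 in wei8tar2_MS and 0.05 in Col_Kyn.

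Genes that add galactose to the wall were not called. Over all genes, 20.6% had an unadjusted p under 0.05 in wei8tar2_MS against Col_MS and 17.0% in Col_Kyn against Col_MS. In the same order DESeq2 called 6.25% and 3.52% of all genes, edgeR 1.08% and 0.366%, and limma-voom 216 and 50 genes. Of 12 galactosyltransferase genes 0 were called by edgeR, DESeq2 or limma-voom in wei8tar2_MS or Col_Kyn against Col_MS, with 2 at an unadjusted p under 0.05 in each and medians of -0.03 and -0.06 over members of both signs. Of 9 genes for the supply of UDP-galactose and the salvage of galactose 0 were called by these tools, with 3 and 2 at an unadjusted p under 0.05 and medians of 0.20 and 0.01. Of 5 tested genes of seed coat mucilage, the process in which BGAL6 is known, 0 were called by them and 0 had an unadjusted p under 0.05, with medians of -0.04 and -0.01. Among 8 dark-inducible and sugar-starvation genes, 1 was called higher in each comparison by edgeR and the medians were 0.58 in wei8tar2_MS and 0.49 in Col_Kyn. In each comparison 6 of the 8 had positive and 2 negative log2 fold changes. In wei8tar2_MS 7 of the 8 had an unadjusted p under 0.05, among them DIN1 (AT4G35770), which was lower at -0.37 ± 0.16. DESeq2 called 4 of the 8 there and limma-voom 1. In Col_Kyn 4 of the 8 had an unadjusted p under 0.05, and DESeq2 called 4 and limma-voom 0. ASN1 (AT3G47340), an asparagine synthetase gene, had 199 and 191 CPM in wei8tar2_MS and 50.1 and 65.7 CPM in Col_MS, a log2 fold change of 1.75 ± 0.23 (adjusted p = 0.036 by edgeR). In Col_Kyn ASN1 had 119 and 187 CPM, at 1.40 ± 0.22 against Col_MS, and was not called by edgeR. DIN10 (AT5G20250), a gene of the raffinose synthase family, had 759 and 592 CPM in Col_Kyn and 303 and 327 CPM in Col_MS, a log2 fold change of 1.10 ± 0.16 (adjusted p = 0.0488 by edgeR). In wei8tar2_MS DIN10 had 538 and 454 CPM, at 0.66 ± 0.16 against Col_MS, and was not called by edgeR. ASN1 in wei8tar2_MS was called under 11 of 14 alternatives, not without Col_MS replicate 1 or either wei8tar2_MS replicate. DIN10 in Col_Kyn was called under 5 of 14.

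**Figure D5:**
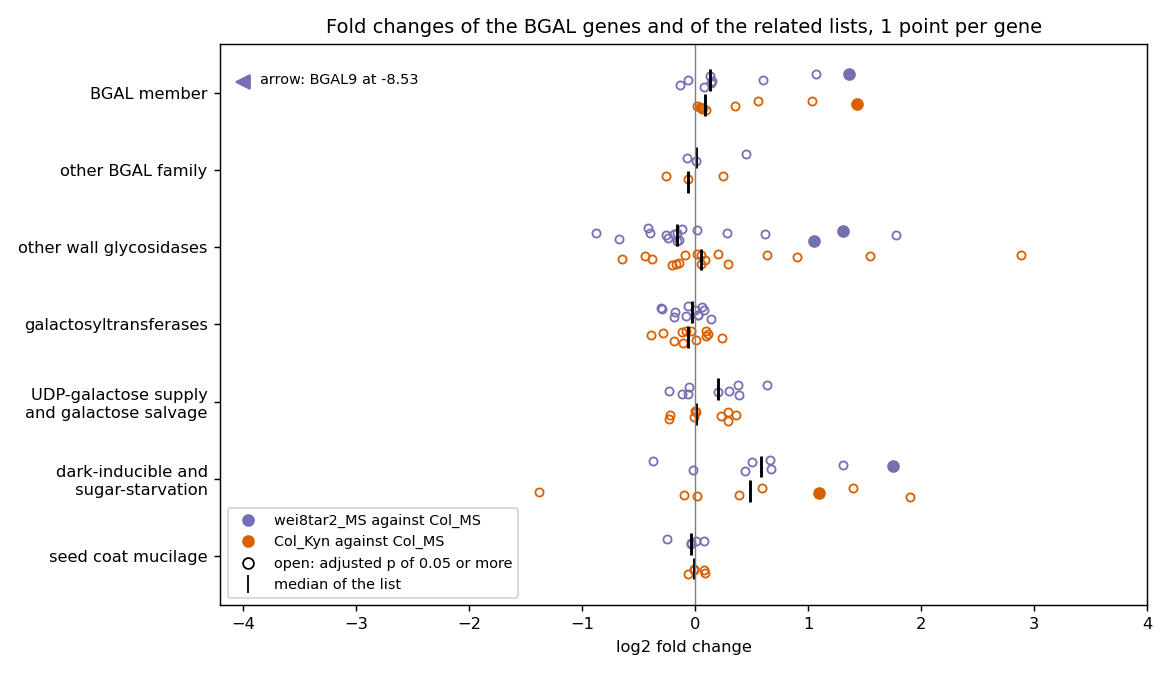
Log2 fold change (horizontal axis) of each tested gene, by list, in wei8tar2_MS against Col_MS and Col_Kyn against Col_MS. Filled points had an adjusted p under 0.05, open ones did not, black strokes are list medians, and the arrow at the left edge stands for BGAL9 at -8.53, beyond the axis. The filled points outside the BGAL genes are BXL4, AGAL2 and ASN1 in wei8tar2_MS and DIN10 in Col_Kyn.

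Markers of cell types that whole seedlings hold were read as sums, and edgeR called 0 of them in wei8tar2_MS or Col_Kyn against Col_MS. Over all genes, edgeR called 1.08% and 0.366% in these comparisons and DESeq2 6.25% and 3.52%, and 20.6% and 17.0% had an unadjusted p under 0.05. The summed level of 5 root hair genes was 52.9 and 56.0 CPM in wei8tar2_MS, 52.7 and 42.3 CPM in Col_Kyn, and 62.1 and 91.7 CPM in Col_MS, and all 5 had negative log2 fold changes in both comparisons, with 0 and 1 called by DESeq2 and 3 and 5 at an unadjusted p under 0.05. Their medians were -0.64 and -0.91, and -0.18 and -0.47 without Col_MS replicate 2. The summed level of 6 root meristem and root cap genes was 55.9 and 55.3 CPM in wei8tar2_MS, 54.1 and 54.0 CPM in Col_Kyn, and 62.5 and 51.5 CPM in Col_MS, with 1 called by DESeq2 and 4 at an unadjusted p under 0.05 in each comparison. The wei8tar2_MS and Col_Kyn sums thus lay between those of the Col_MS libraries. SCR, a gene of root patterning, made up most of the sum, at 46.8 to 55.9 CPM in every library, with log2 fold changes of 0.02 in both comparisons. PLT1, PLT2 and SMB stood at no more than 2.47 CPM in any library, with log2 fold changes of -2.55, -1.92 and -2.27 in wei8tar2_MS and -2.95, -1.83 and -1.92 in Col_Kyn. Those of BRN1 and WOX5 were -0.62 and 1.46 in wei8tar2_MS and -1.23 and -0.45 in Col_Kyn. The medians of the 6 were -1.27 and -1.53, and -0.30 and -0.84 with a filter of at least 100 reads. The summed level of 8 seed reserve genes was 44.9 and 26.4 CPM in wei8tar2_MS, 31.2 and 3.38 CPM in Col_Kyn, and 82.9 and 19.6 CPM in Col_MS, and of the 7 tested 1 and 2 were called by DESeq2 and 1 and 3 had an unadjusted p under 0.05. Of the 7, 5 had a negative log2 fold change in wei8tar2_MS and 7 in Col_Kyn, with medians of -0.30 and -2.09. Without Col_MS replicate 1 these medians were 0.96 and -0.13. Replicate 1 of each group thus held more seed reserve RNA than replicate 2, and BGAL4 was higher in the replicate with less of it in Col_Kyn and Col_MS but not in wei8tar2_MS. Every marker had a read in every library. The part of these cells in the values of the BGAL genes was not tested.

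The genes whose log2 CPM followed the members most closely over the 6 libraries were looked up among 16090 genes by Pearson's r, as a description. For BGAL2 they were XBAT35 (AT3G23280, r = 0.9964), AT5G50000 (r = 0.9962) and AT5G50640 (r = 0.9949), whose log2 fold changes in wei8tar2_MS were 0.48, 0.19 and 0.31. All of these were smaller than that of BGAL2, and edgeR called 0 of them. For BGAL9 they were TAA1 (r = 0.9993), AT5G14840 (r = 0.996) and AT4G20690 (r = 0.9935), which were called lower in wei8tar2_MS against Col_MS at -2.24, -1.97 and -3.10. The 6 libraries share their groups of 2, so for both members such an r mainly reflects 2 libraries set against 4. For BGAL2 the 2 are those of Col_MS, and for BGAL9 those of wei8tar2_MS.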

How the data were processed

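The submitters' processing notes name TopHat 1.3.0 and the TAIR10 build for these 6 mRNA libraries. The deposited tables hold raw counts of uniquely mapped reads per gene, per the file headers, and a gene that a table does not list was taken as 0. The authors also deposited RPKM values, that is the count per kilobase of a listed gene length and per 1000000 reads. Recomputed RPKM differed by at most a relative 8.48e-14. Which program did the counting, with which strand setting and annotation, is not given in the sources used here. Library totals were 26.9 M and 25.1 M reads for wei8tar2_MS, 31.8 M and 18.1 M for Col_Kyn, and 26.8 M and 28.2 M for Col_MS (M, 1000000).

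Counts were tested with edgeR 4.0.16 (R 4.3.3; TMM scaling, filterByExpr, quasi-likelihood fit over all 6 libraries with 1 coefficient per group) and Benjamini-Hochberg adjustment over 21326 genes, with calls at an adjusted p under 0.05. A standard error (SE) is the size of the log2 fold change over the root of its F statistic. CPM are scaled by TMM. DESeq2 1.42.0, limma-voom 3.58.1, other scalings and filters, a replicate block, fits of only the groups compared and fits without each library were alternatives. The fit was tested on simulated counts with changes placed in Col_Kyn. It called 78% of 50 genes raised 2-fold and 62% of 50 lowered 2-fold. Of genes raised or lowered 4-fold it called 98% each, and it called 16 unchanged genes in a set of 21165. A gene with a change near 2-fold can thus go uncalled. The labels call the repeats biological and do not say whether they came from separate seed lots or plates.

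Sequences and coordinates come from the RefSeq TAIR10.1 genome and were matched by locus; the files hold no coordinates. Global alignments were made with Biopython 1.88. The members and all lists were chosen with earlier results of these data known. Named from each list are the genes called in at least 1 comparison and some that were not called. For each called member the 3 genes most alike in log2 CPM with a mean of at least 2 on that scale are named.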

Additional observations from a re-analysis of the deposited data

Results flagged for a closer look

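BGAL9 differed between the effect of the mutant line and the effect of kynurenine. Both effects are set against the same Col_MS libraries, so their difference is the direct comparison of wei8tar2_MS with Col_Kyn, in which the log2 fold change of BGAL9 was -8.56 ± 0.20. BGAL9 had 3 and 5 reads in wei8tar2_MS, against 1768 and 1077 reads in Col_Kyn. No other member was called in that comparison. The members were chosen with these levels known, so the value is a description.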

How the results depend on the processing

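Genes called, against 230 in wei8tar2_MS against Col_MS, 78 in Col_Kyn against Col_MS and 6 in wei8tar2_MS against Col_Kyn, were 1333, 750 and 58 by DESeq2, and 1113, 409 and 26 with no filter on low counts. With the replicate block they were 367, 130 and 12, and with only the 2 groups compared 365, 0 and 11; for the 0, 2399 genes had an unadjusted p under 0.05. Limma-voom called 50 in Col_Kyn against Col_MS, and library totals alone gave 12 in wei8tar2_MS against Col_Kyn. Leaving out 1 library gave 4 to 1644, 0 to 992 and 4 to 17. The counts of 0 came without Col_Kyn replicate 2 or either wei8tar2_MS replicate, where 2380 to 3083 genes had an unadjusted p under 0.05.

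BGAL members called, against 2 in wei8tar2_MS against Col_MS, were 4 with no filter and 1 to 3 when 1 library was left out. Against 1 in Col_Kyn against Col_MS they were 2 by DESeq2, 0 with only the 2 groups compared and 0 to 2 when 1 library was left out. In wei8tar2_MS against Col_Kyn 1 was called under all 14 alternatives. BGAL9 was called under all 14 in both comparisons, at -8.98 to -8.17 against Col_MS and -9.01 to -8.19 against Col_Kyn. BGAL2 was called under 12 of 14 in wei8tar2_MS, at 1.27 to 1.48, and 10 of 14 in Col_Kyn, at 1.34 to 1.53. BGAL1 and BGAL4 were the added members with no filter in wei8tar2_MS. Of the other values, 741 stayed within 1 SD of the replicates and 63 moved by more, and no called value changed sign. Of 2 lengths added after seeing the data, transcript length put BGAL10 highest in Col_MS, and coding length, like the authors' RPKM, put BGAL4 highest. Causes were not tested.

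Deviations of same-numbered libraries correlated at 0.202 for Col_MS and Col_Kyn, 0.022 for Col_MS and wei8tar2_MS and -0.039 for Col_Kyn and wei8tar2_MS. The replicate block changed no member's call. With it the genes called rose from 230 to 367, from 78 to 130 and from 6 to 12. Summed seed reserve CPM was higher in replicate 1 than in replicate 2 of each group. Whether same-numbered libraries were prepared together was not tested. With 2 libraries a group, leaving 1 out assumes that the lone library varies like the others.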

Other observations

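The replicates of a group differed more for some BGAL genes than for the typical gene. The median absolute log2 difference between replicates over all tested genes was 0.10 in wei8tar2_MS, 0.18 in Col_Kyn and 0.20 in Col_MS. For BGAL4 the difference of replicate 2 from replicate 1 was -0.20 in wei8tar2_MS, 0.89 in Col_Kyn and 0.63 in Col_MS, and for BGAL8 it was 0.07, 0.45 and 0.31. BGAL12 differed by 0.04 to 0.05 in all 3 groups.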
